A study of Mus musculus with 13 samples.

Results

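The 10 genes described here make the extracellular matrix of the endocardial cushions and valves. They are the hyaluronan synthase Has2, the chondroitin sulphate proteoglycan Vcan (versican), the link protein Hapln1, the matricellular protein Postn (periostin), elastin (Eln), the fibulins Fbln1 and Fbln2, and the small leucine-rich proteoglycans Bgn (biglycan), Dcn (decorin) and Lum (lumican). They were found by gene symbol, and all 10 were among the 27998 genes of every matrix. Their UMIs (unique molecular identifiers, 1 for each captured transcript) were counted in 80741 barcodes with at least 2000 UMIs. Single-cell RNA-seq with the 10x Genomics droplet method had been run on wild-type C57Bl/6J mice without any treatment. The samples were embryos at E8.5 and E10.5, cut free of head and limbs, and whole hearts at 3 later embryonic stages (E12.5, E14.5, E16.5) and at P3, the third day after birth. Each stage from E10.5 to E16.5 had 2 libraries, and of E8.5 and P3 there was 1 matrix each, the former labelled replicate 2. Whether both libraries of 1 stage were made from separate animals or litters is not given in the sources used here, so the p-values measure the spread between these samples, which may be technical. The embryos of E8.5 and E10.5 held tissues outside the heart, so the classes below are not cardiac by dissection at those stages.

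Cushions form where the early heart tube swells with a hyaluronan-rich jelly between myocardium and endocardium. Endocardial cells leave their layer, enter that jelly as mesenchyme and later remodel it into layered leaflets of collagen, proteoglycan and elastic fibres. The transcription factor Sox9 is known from cushion and valve mesenchyme, and Tcf21 from epicardium-derived cells that become the fibroblasts of the heart wall.

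Cells were therefore sorted by rules on other genes. Mesenchyme was any barcode with at least 10 UMIs of the fibrillar collagens Col1a1, Col1a2 and Col3a1, and it was split by at least 1 UMI of Sox9 without Tcf21 or of Tcf21 without Sox9. Sox9 mesenchyme held 2520 barcodes, 3.12% of all, and Tcf21 mesenchyme held 855. Endocardium was endothelium with Npr3 and held 2853 barcodes, mural cells (pericytes and smooth muscle, at least 5 UMIs of 6 mural genes) held 1571, and cardiomyocytes (at least 4% of UMIs from 13 cardiomyocyte genes) held 23937. Mesenchyme with both factors (2145) or neither (1401), other endothelium (2214), mixed barcodes (1506) and erythroid barcodes (4007) were kept apart, and 37732 barcodes met no rule. Levels are given in CPM, counts of a gene per 1000000 UMIs summed over the cells of a class in 1 library, always with replicate 1 before replicate 2. Levels of different genes were not set against each other.

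Of the lists that the rules did not use, the sums of cushion and epicardial genes followed the class names in the hearts. The sum of the fibroblast list did not at E16.5. A list of 9 cushion genes summed to 2087 and 2004 CPM in Sox9 mesenchyme of E12.5 against 553 and 466 CPM in Tcf21 mesenchyme, and to 1691 and 1860 against 702 and 794 CPM at E16.5. Epicardial genes summed to 1437 and 1384 CPM in Tcf21 mesenchyme of E12.5 against 85.6 and 79.3 CPM in Sox9 mesenchyme. A fibroblast list, on the other hand, stood at 4768 and 4176 CPM in Sox9 mesenchyme and at 2817 and 2541 CPM in Tcf21 mesenchyme at E16.5, so by that stage the Sox9 class exceeded the Tcf21 class on this sum. The part of single genes in the sum, such as Mgp, is not given here. Cartilage genes (Col2a1, Col9a1, Col9a3, Matn1, Acan and Snorc) summed to 290 and 269 CPM in Sox9 mesenchyme of E12.5. Acan and Matn1 were below 0.3 CPM in replicate 1, so the other genes listed made up nearly all of the sum there. Acan stood at 1.63 and 1.52 CPM at E16.5, on 3 and 2 UMIs. The fibrillar collagens that chose both classes went from 1230 and 1363 to 5988 and 5317 CPM in Sox9 mesenchyme between E12.5 and E16.5. Library totals ran from 67141166 to 259041468 UMIs, and pairs of libraries shared at most 2.42% of the barcodes of the smaller one. Free RNA was read from erythroid barcodes, which should lack these genes. At P3 the erythroid barcodes themselves held 221 CPM of endothelial and 160 CPM of mural genes, so that stage has no clean reference.

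The promoters of 5 members are shown, those of the neighbours Vcan and Hapln1, which both fell, and of Postn, Fbln1 and Bgn, which rose in the same cells. RefSeq windows of GRCm38.p6 were at hand for 6 of the 10 members, in 8 windows, and Has2, Eln, Dcn and Lum had none. In the lines below, 120 bases (250 for Fbln1) upstream of the annotated start are given 5′ to 3′ on the gene's own strand, and capitals mark a match to 1 of the 3 motifs searched on both strands of the whole window of 300 bases, AACAAT (the SOX core), TATAAA and CAGACAG (a SMAD element). Vcan (chr13:89742513-89742632, minus strand) and Hapln1 (chr13:89540516-89540635, plus strand) are neighbours on chromosome 13, 43.66 kb apart, and both fell in Sox9 mesenchyme from E12.5 to E16.5. Postn (chr3:54360987-54361106, plus strand), Fbln1 (chr15:85205699-85205948, plus strand) and Bgn (chrX:73483481-73483600, plus strand) rose there.
Vcan: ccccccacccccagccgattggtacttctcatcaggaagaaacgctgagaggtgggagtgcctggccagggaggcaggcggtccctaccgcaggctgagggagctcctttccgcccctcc
Hapln1: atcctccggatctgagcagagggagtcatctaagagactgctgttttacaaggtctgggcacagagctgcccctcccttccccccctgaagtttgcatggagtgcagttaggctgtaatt
Postn: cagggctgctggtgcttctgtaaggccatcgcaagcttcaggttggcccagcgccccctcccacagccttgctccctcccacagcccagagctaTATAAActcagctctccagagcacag
Fbln1: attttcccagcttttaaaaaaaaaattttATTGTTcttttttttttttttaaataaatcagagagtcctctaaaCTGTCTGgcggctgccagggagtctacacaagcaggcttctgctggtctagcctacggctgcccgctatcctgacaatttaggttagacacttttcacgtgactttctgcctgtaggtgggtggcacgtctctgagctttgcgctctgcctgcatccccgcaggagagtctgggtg
Bgn: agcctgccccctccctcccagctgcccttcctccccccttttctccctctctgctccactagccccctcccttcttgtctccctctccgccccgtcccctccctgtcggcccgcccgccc
The Postn window held TATAAA 26 bases before its start, a motif found in 13.6% of 32851 RefSeq promoters of 300 bases. The Fbln1 window held AACAAT 221 bases and CAGACAG 176 bases before its start, both on the opposite strand, and these letters occurred in 10.7% and 7.73% of promoters. A further Fbln1 window, downstream of the one shown, held the same CAGACAG 235 bases before its start and no AACAAT. A further Postn window, upstream of the one shown, had AACAAT 165 bases before its start. None of the 3 motifs was found in the windows of Vcan, Hapln1, Fbln2 and Bgn. On chromosome 10, Dcn and Lum are likewise neighbours on the plus strand, 46.985 kb apart.

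Sox9 mesenchyme had the highest mean level of 7 of the 10 members at E12.5, of 8 at E14.5 and of 9 at E16.5 among the 5 classes. At E12.5 the exceptions were Dcn and Fbln2, highest in Tcf21 mesenchyme, and Eln, highest in mural cells. The exception at E16.5 was Fbln2, which was highest in endocardium. At that stage Dcn, Eln, Fbln1 and Lum did not differ from Tcf21 mesenchyme by test (edgeR, adjusted p 0.395, 0.847, 0.845 and 0.0841). That contrast at a single stage was added after the values had been seen. The share of all genes that were highest in Sox9 mesenchyme was not counted. Mesenchyme was also chosen by its collagen, so this order is not independent of the class rules. Several neighbours in these orders overlapped between their 2 libraries, such as Fbln2 in Tcf21 mesenchyme, mural cells and Sox9 mesenchyme at E12.5.

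**Figure D1:**
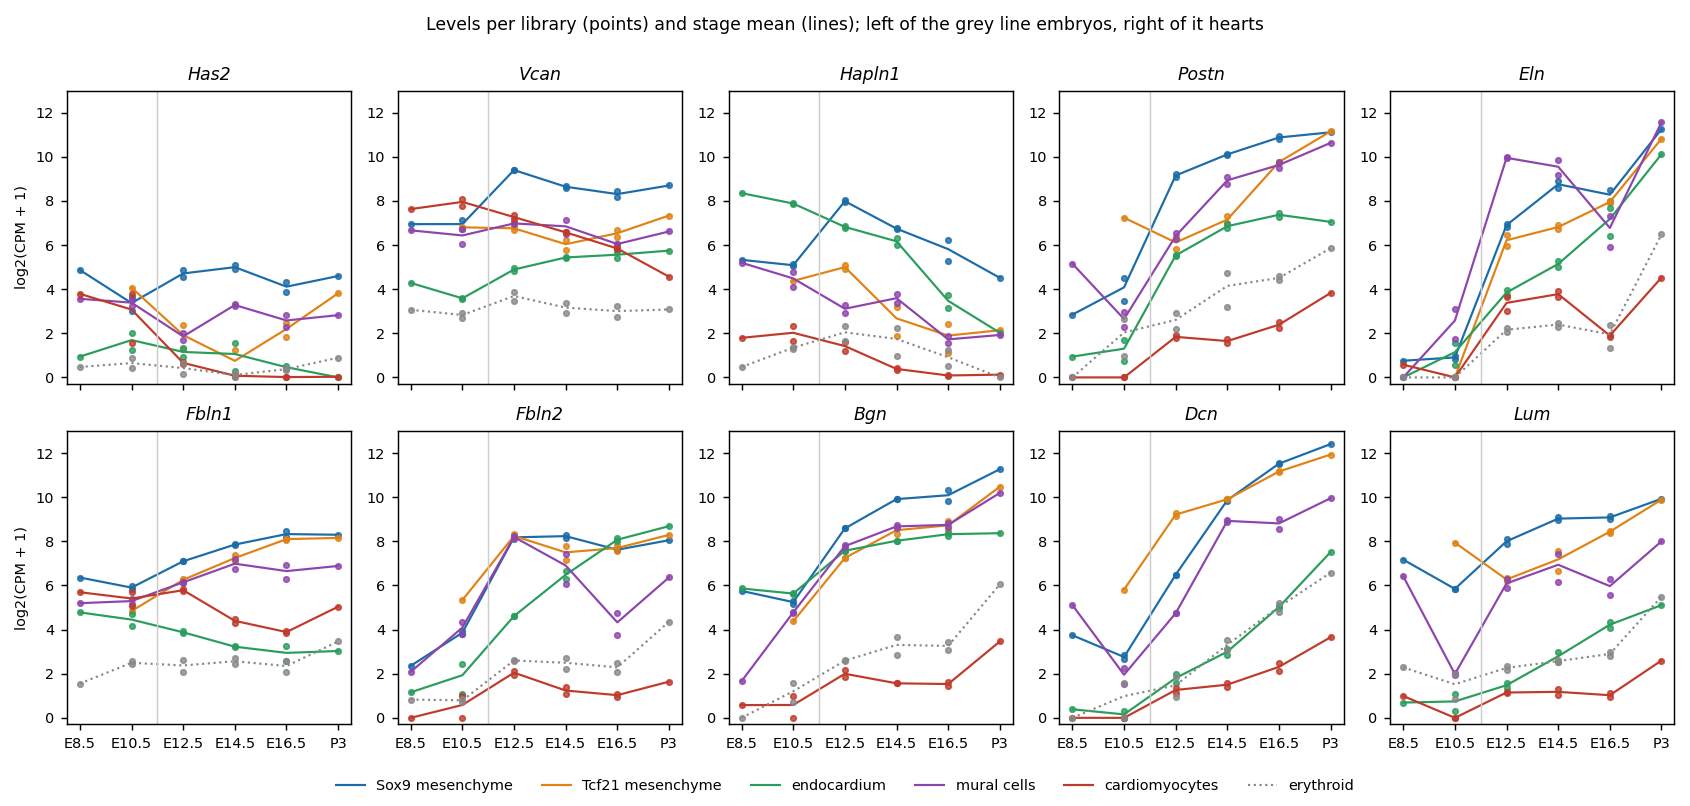
Level of each of the 10 members as log2(CPM + 1) at each stage, in the 5 cell classes (coloured) and in erythroid barcodes (grey, dotted), with 1 point per library, lines through the stage means and a grey line between embryos and hearts. Among the Sox9 mesenchyme points, Vcan and Hapln1 are highest at E12.5 and Dcn goes from 88.4 and 89.4 CPM at E12.5 to 2980 and 2908 CPM at E16.5, and Fbln2 goes up in endocardium while it goes down in mural cells between E12.5 and E16.5.

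Has2 makes hyaluronan, the bulk polysaccharide of the cushion jelly. In Sox9 mesenchyme it stood at 22.4 and 28.1 CPM at E12.5, 33.0 and 28.9 CPM at E14.5, and 13.6 and 19.0 CPM at E16.5. The E16.5 libraries thus lay below all 4 earlier heart libraries, each on 25 UMIs. In Tcf21 mesenchyme Has2 had 7 and 3 UMIs at E12.5, 0 and 1 at E14.5, then 3 and 4 at E16.5. Endocardium stayed between 0.232 and 1.94 CPM from E12.5 to E16.5, and cardiomyocytes held 24 and 34 UMIs at E12.5 but 0 and 1 at E16.5, levels near those of erythroid barcodes (0.103 and 0.577 CPM at E12.5), so no fold is read there.

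Vcan, the large proteoglycan that binds hyaluronan, was at its highest in Sox9 mesenchyme of E12.5, with 678 and 671 CPM. It stood at 413 and 385 CPM at E14.5 and at 287 and 346 CPM at E16.5, without overlap between stages. Tcf21 mesenchyme had 103 and 112, 74.9 and 54.6, and 82.5 and 101 CPM at these stages, below Sox9 mesenchyme in every library. Cardiomyocytes also carried Vcan, with 143 and 163 CPM at E12.5, 94.4 and 94.5 at E14.5, then 55.8 and 57.1 at E16.5, while erythroid barcodes held 5.75 to 13.8 CPM over these libraries. Low-count barcodes of 10 to 100 UMIs, a further source of free RNA, held 32.9 to 97.9 CPM of Vcan in the hearts. Of cardiomyocytes thinned to 2000 UMIs each, 16.6% and 17.7% had a Vcan UMI at E12.5 (52.1% and 51.8% unthinned), against 2.11% and 1.29% of thinned erythroid barcodes.

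Hapln1 ties versican to hyaluronan. It was at 261 and 245 CPM in Sox9 mesenchyme of E12.5, 104 and 108 CPM at E14.5, and 37.5 and 73.2 CPM at E16.5. Endocardium had 108 and 117, 63.9 and 78.0, and 7.78 and 12.4 CPM at the same stages, so in both classes each stage lay wholly below the one before. Endothelium without Npr3 reached 280 and 199 CPM at E12.5, above endocardium. Tcf21 mesenchyme had 28.9 and 33.1 CPM at E12.5 and 4.30 and 1.15 CPM at E16.5, the latter near the erythroid 0.435 and 1.33 CPM.

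Postn, a matricellular protein that binds collagen and integrins, was high in Sox9 mesenchyme first and in Tcf21 mesenchyme and mural cells later. Its level in Sox9 mesenchyme was 594 and 544 CPM at E12.5, 1076 and 1133 at E14.5, then 1772 and 1988 at E16.5. Tcf21 mesenchyme had 80.8 and 56.1, then 158 and 126, then 856 and 880 CPM, and mural cells 75.5 and 92.7, then 437 and 540, then 868 and 717 CPM. No stages overlapped within any of these 3 classes. Cardiomyocytes, at 1.92 to 4.72 CPM of Postn, lay below the erythroid barcodes of their own libraries and are read as background.

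Eln, the core protein of elastic fibres, was highest in mural cells at E12.5, with 974 and 1009 CPM, and fell there to 159 and 58.6 CPM at E16.5. Sox9 mesenchyme had 112 and 125 CPM at E12.5, 384 and 479 at E14.5, then 258 and 363 at E16.5, so the stages did not overlap and E14.5 was the highest of the 3. Endocardium had 14.53 and 12.3, 31.0 and 37.6, and 84.4 and 204 CPM of Eln. Collagen-positive mesenchyme with neither Sox9 nor Tcf21 carried more Eln than Sox9 or Tcf21 mesenchyme of the same stage, with 229 and 330 CPM at E12.5 and 494 and 542 at E16.5.

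Fbln1 is a fibulin of early matrix and basement membranes. Sox9 mesenchyme had 137 and 135 CPM at E12.5, 227 and 234 at E14.5, then 292 and 351 at E16.5, and Tcf21 mesenchyme had 77.2 and 73.8, 164 and 138, and 269 and 279 CPM. By E16.5 both classes lay close, although their libraries did not overlap. Cardiomyocytes had 52.4 and 55.9 CPM of Fbln1 at E12.5 and 13.5 and 14.1 CPM at E16.5, above the erythroid 3.18 to 5.49 CPM of these libraries, but low-count barcodes held 24.3 to 47.8 CPM.

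Fbln2, which binds elastic fibre proteins and versican, was at like levels in Sox9 mesenchyme (278 and 301 CPM), Tcf21 mesenchyme (288 and 318 CPM) and mural cells (281 and 305 CPM) of E12.5, with overlapping libraries. It then parted. Mural cells had 171 and 67.1 CPM at E14.5, then 25.8 and 12.4 at E16.5, while endocardium had 23.4 and 23.6 CPM at E12.5, 76.6 and 101 at E14.5, then 257 and 280 at E16.5. Sox9 mesenchyme stood at 192 and 200 CPM of Fbln2 at E16.5, below both endocardial libraries.

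Bgn, a small proteoglycan that binds collagen fibrils, was at 383 and 385 CPM in Sox9 mesenchyme of E12.5, 966 and 964 at E14.5, then 909 and 1273 at E16.5, where the last 2 stages overlapped. Tcf21 mesenchyme held less in each library, 150 and 152 CPM at E12.5 and 363 and 483 at E16.5. Endocardium carried Bgn too, with 189 and 191 CPM at E12.5 and 303 and 336 at E16.5, far above the 4.94 to 11.6 CPM of erythroid barcodes. Cardiomyocytes, at 1.69 to 3.43 CPM, did not exceed the erythroid barcodes.

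Dcn, which regulates collagen fibril width, showed the largest fold between stages of the members in Sox9 mesenchyme from E12.5 to E16.5. It was at 88.4 and 89.4 CPM at E12.5, 948 and 921 at E14.5, then 2980 and 2908 at E16.5. Tcf21 mesenchyme started far higher, at 626 and 560 CPM, and stood at 2235 and 2365 CPM at E16.5, where the difference between the classes did not pass the test (adjusted p 0.395). Mural cells had 25.9 and 25.7 CPM at E12.5, 473 and 500 at E14.5, then 520 and 379 at E16.5, so the last 2 stages overlapped there. In endocardium Dcn had 33.0 and 30.1 CPM at E16.5 against 27.2 and 36.1 CPM in erythroid barcodes, so its increase there cannot be told apart from free RNA.

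Lum, the lumican of collagen-rich tissue, was at 278 and 234 CPM in Sox9 mesenchyme of E12.5, 547 and 499 at E14.5, then 565 and 520 at E16.5. Tcf21 mesenchyme had 73.7 and 79.1, 189 and 99.7, and 355 and 337 CPM. The last 2 stages overlapped in Sox9 mesenchyme and did not in Tcf21 mesenchyme. Endocardial Lum reached 15.9 and 19.5 CPM at E16.5, against 6.01 and 6.89 CPM in erythroid barcodes of the same libraries.

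Sox9 mesenchyme was first compared with Tcf21 mesenchyme, since both classes were chosen by the same collagens. They are marker classes rather than lineages. Mesenchyme with both factors (2145 barcodes over all libraries, against 855 with Tcf21 alone) was in neither. Over the 3 heart stages, 8 of 10 members were higher in Sox9 than in Tcf21 mesenchyme and 1 was lower, where 13.9% of the 12289 genes tested were higher and 14.9% lower (edgeR, quasi-likelihood F test, p-values adjusted by Benjamini and Hochberg). The median log2 change was 1.23 over the members and 0.0060 over all genes tested. Hapln1 led with a log2 difference of 3.64 (SE 0.196, adjusted p 1.44e-15) and Has2 followed with 3.53 (SE 0.332, adjusted p 5.27e-10), both resting on few UMIs in Tcf21 mesenchyme, where Hapln1 had 7 and 2 at E14.5, then 5 and 1 at E16.5, near erythroid levels. Has2 was too low to be tested in Tcf21 mesenchyme alone and entered this fit with the 5 classes together. Its call is thus not independent of the filter on low counts, and nothing is read from its place among the 8. Postn differed by 2.22 (SE 0.0843, adjusted p 3.63e-19) and Vcan by 2.18 (SE 0.0786, adjusted p 8.21e-20). Lum (1.24), Bgn (1.21), Eln (0.83) and Fbln1 (0.40) were higher as well, with adjusted p of 1.65e-10, 2.72e-14, 0.000637 and 0.000187. Dcn was lower by a log2 difference of -0.97 (SE 0.0744, adjusted p 5.00e-12). For Fbln2 the difference was 0.03 (SE 0.108, adjusted p 0.867), and with at least 2 UMIs of the splitting factor it became 0.53 (adjusted p 0.00282).

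The gap between both kinds of mesenchyme was followed over the stages, in contrasts added after the values had been seen. At E12.5, 7 members were higher and 1 lower in Sox9 mesenchyme (25.7% of genes were called in either direction), at E14.5 8 were higher and 0 lower (13.5%), and at E16.5 5 were higher and 0 lower (8.1%). The members called at E16.5 were Vcan, Has2, Hapln1, Postn and Bgn. For Has2 the limit set by the filter on low counts, given above, holds at each stage. Dcn went from a log2 difference of -2.90 (SE 0.138) at E12.5 to -0.22 (SE 0.129, adjusted p 0.304) and 0.21 (SE 0.124, adjusted p 0.395). Postn went from 2.91 (SE 0.153) and 2.78 (SE 0.156) to 0.96 (SE 0.126, adjusted p 2.42e-06), Vcan from 2.48 (SE 0.116) to 1.64 (SE 0.142), while Bgn was at 1.18 (SE 0.129), 1.24 (SE 0.128) and 1.21 (SE 0.125). Hapln1 was at 2.85 (SE 0.165), 4.06 (SE 0.371) and 4.01 (SE 0.481), the later values on few UMIs in Tcf21 mesenchyme, and its difference of stage changes (1.15, SE 0.684, adjusted p 0.479) did not pass. Eln was at 0.55 (SE 0.312), 1.77 (SE 0.329) and 0.16 (SE 0.294), and for Has2 the 0 to 7 UMIs per library in Tcf21 mesenchyme allow no order of stages.

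**Figure D2:**
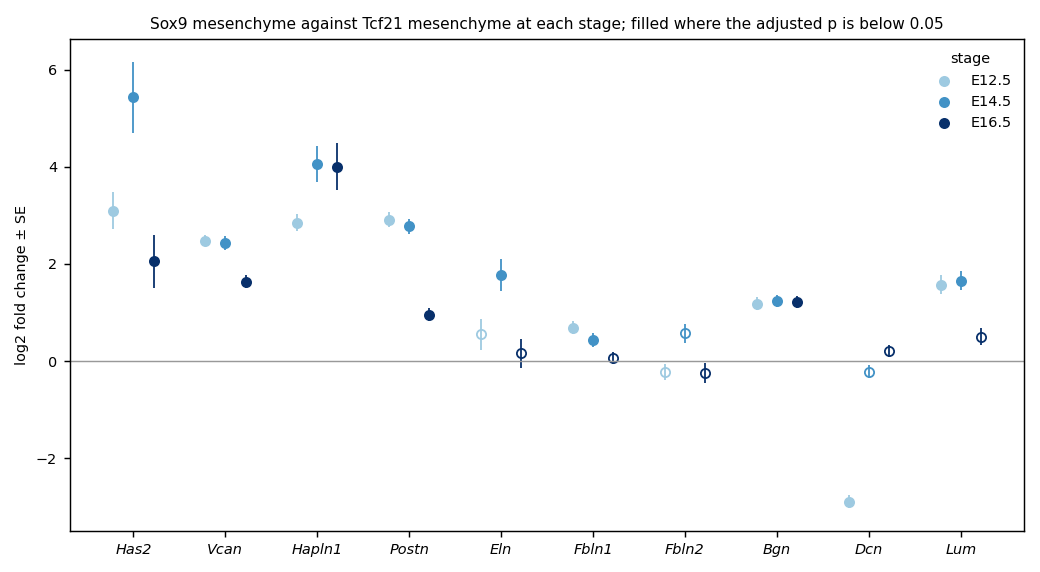
Difference between Sox9 and Tcf21 mesenchyme for each member (log2, positive when higher in Sox9 mesenchyme) at E12.5, E14.5 and E16.5, with bars of 1 SE and filled points for an adjusted p under 0.05. Dcn moves from -2.90 to 0.21, Postn drops from 2.91 to 0.96, and Bgn keeps about 1.2 at each stage. The contrasts shown were added after the values had been seen.

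The stage change itself was tested for a difference between both classes. Of the members, Dcn rose more in Sox9 mesenchyme (difference of log2 changes 3.104, SE 0.184, adjusted p 7.67e-13), and 3 rose less or fell more there, where 1.8% of genes differed upward and 1.51% downward. These 3 were Postn (-1.95, SE 0.199, adjusted p 9.80e-08), Lum (-1.08, SE 0.266, adjusted p 0.0155) and Vcan (-0.85, SE 0.190, adjusted p 0.00675). With DESeq2 Lum had an adjusted p of 0.115, and without replicate 1 of E12.5 it had 0.175, without replicate 1 of E16.5 0.0739 and without replicate 2 of E16.5 0.0741. Vcan had 0.0657, 0.0763 and 0.0792 without those libraries and 0.0823 with thinned sums. Fbln1 did not pass (adjusted p 0.0639), but did with the library as a replicate block (-0.62, adjusted p 0.0202), with DESeq2 (0.0432), without the filter on low counts (0.0123), with cardiomyocyte genes at 8% (0.0368) and without replicate 2 of E16.5 (0.0281).

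Against the other classes, over the 3 heart stages together, Sox9 mesenchyme held more of nearly every member. All 10 were higher than in endocardium and 0 lower, where 30.7% of genes were higher and 33.4% lower. Has2 was likewise too low to be tested in endocardium alone, so its call there is not independent of the filter on low counts. Against mural cells 9 were higher and Eln was lower (-0.89, SE 0.154, adjusted p 4.04e-05), with 13.2% of genes higher and 12% lower. All 10 were higher than in cardiomyocytes, with 37.7% higher and 40.1% lower among all genes. Sox9 mesenchyme needed at least 10 collagen UMIs, and endothelial or cardiomyocyte barcodes with as many were left out as mixed. The counts of matrix genes against endocardium and cardiomyocytes are thus not independent of the class rules. The differences from endocardium ran from 1.22 for Hapln1 (SE 0.107) to 6.09 for Dcn (SE 0.109) on the log2 scale. Of the members, Vcan (1.87, SE 0.0584) and Fbln1 (2.76, SE 0.0648) differed least from cardiomyocytes, the 2 members that stood above erythroid barcodes there at every heart stage. The other 8 differed by 4.82 to 8.15. Single stages could go the other way, since at E16.5 Fbln2 was at 192 and 200 CPM in Sox9 mesenchyme and 257 and 280 CPM in endocardium, and Eln was at 258 and 363 CPM in Sox9 mesenchyme and 159 and 58.6 CPM in mural cells.

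In Sox9 mesenchyme the hyaluronan-binding Vcan and Hapln1 fell between E12.5 and E16.5, while all 3 small leucine-rich proteoglycans, Postn, Eln and Fbln1 rose. Of the 10 members 6 rose and 3 fell, where 13.6% of 11300 genes rose and 12% fell. The median log2 change was 1.23 over the members and -0.0024 over all genes tested. Dcn rose by a log2 change of 5.12 (SE 0.108, adjusted p 2.69e-17), Postn by 1.79 (SE 0.0911, adjusted p 1.32e-11) and Bgn by 1.56 (SE 0.108, adjusted p 1.18e-09). Eln (1.44), Fbln1 (1.30) and Lum (1.16) rose with adjusted p of 4.02e-08, 2.36e-09 and 4.67e-08. Hapln1 fell by 2.18 on the log2 scale (SE 0.156, adjusted p 1.88e-09), Vcan by 1.03 (SE 0.0951, adjusted p 7.62e-08) and Fbln2 by 0.50 (SE 0.0986, adjusted p 0.000847). Has2 changed by -0.61 (SE 0.227, adjusted p 0.0561) and did not pass, but it passed under 8 of the alternatives, at -0.61 to -0.83 with adjusted p of 0.0493 to 0.0178. Of these, 2 left out a library, replicate 1 of E12.5 or replicate 2 of E14.5. The collagens that chose the class, given above for both stages, went up. So did its fibroblast list, given above for E16.5 only. The part of both in these changes was not tested. Stage and preparation cannot be told apart, since no library holds cells of more than 1 stage.

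The same change was then split at E14.5, a split added after the values had been seen. From E12.5 to E14.5, 6 members rose and 2 fell (23.8% of genes were called in either direction), and from E14.5 to E16.5, 4 rose and 3 fell (9.76%). Dcn rose by 3.28 (SE 0.101) and then 1.84 (SE 0.0923), and Postn by 0.85 (SE 0.0888) and 0.94 (SE 0.0895). Eln rose by 1.74 (SE 0.118) in the first step and then changed by -0.31 (SE 0.123, adjusted p 0.130). Vcan fell by 0.87 on the log2 scale (SE 0.0887) and then changed by -0.16 (SE 0.0970, adjusted p 0.344). Has2 changed by 0.18 (SE 0.148, adjusted p 0.422) and then fell by 0.79 (SE 0.233, adjusted p 0.0378).

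In Tcf21 mesenchyme 6 of the 9 members tested rose and 1 fell, where 11.1% of 7985 genes rose and 8.62% fell. Has2 was too low to be tested there. Postn rose by a log2 change of 3.77 (SE 0.163, adjusted p 4.58e-15), Lum by 2.27 (SE 0.180, adjusted p 4.33e-10), Dcn by 2.05 (SE 0.127, adjusted p 4.19e-12) and Fbln1 by 1.95 (SE 0.148, adjusted p 1.89e-10). Eln rose by 1.86 (SE 0.164) and Bgn by 1.57 (SE 0.158), and Hapln1 fell by 3.26 (SE 0.469, adjusted p 8.54e-06). Vcan changed by -0.15 (SE 0.170, adjusted p 0.616) and Fbln2 by -0.45 (SE 0.172, adjusted p 0.0692). Fbln2 passed under 9 alternatives, such as -0.998 (adjusted p 0.000609) with 2 UMIs of the splitting factor, -0.60 (adjusted p 0.00114) without the 5% of cells with most UMIs, and also without replicate 1 of E14.5 (0.0148), replicate 2 of E14.5 (0.0175) or replicate 1 of E16.5 (0.0458). The epicardial list went from 1437 and 1384 to 580 and 480 CPM in this class over the same stages, and its part in these changes was not tested.

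**Figure D3:**
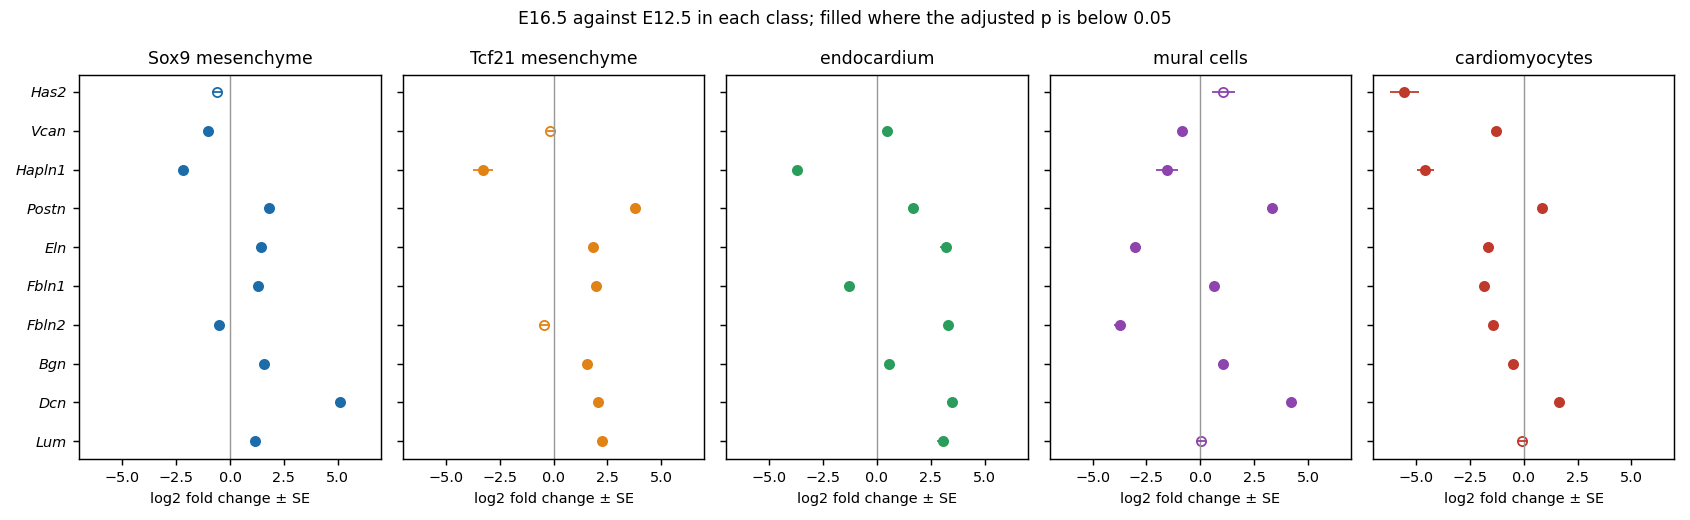
Change from E12.5 to E16.5 (log2) of each member in the 5 classes, with bars of 1 SE and filled points for an adjusted p under 0.05. Postn is above 0 and Hapln1 below 0 in both kinds of mesenchyme and in endocardium, cardiomyocyte points other than Vcan, Fbln1 and Eln are at or near the level of erythroid barcodes, and Eln and Fbln2 point in opposite directions in endocardium and mural cells.

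In endocardium Fbln2 and Eln rose while Hapln1 fell. Of 9 members tested there 7 rose and 2 fell, where 21.6% of 10805 genes rose and 23.8% fell. Dcn and Lum, among the 7, stood at 1.96 to 3.02 and 1.55 to 2.03 CPM at E12.5. They may have passed the filter on low counts through later stages, so nothing is read from these counts. Fbln2 rose by a log2 change of 3.32 (SE 0.123, adjusted p 1.27e-13), Eln by 3.20 (SE 0.250, adjusted p 7.43e-09), Postn by 1.68 (SE 0.111, adjusted p 6.55e-10) and Bgn by 0.56 (SE 0.0899, adjusted p 5.20e-05). With cells thinned before the class rules, Postn had 1.05 (SE 0.420, adjusted p 0.102). Hapln1 fell by 3.71 (SE 0.176, adjusted p 5.15e-12) and Fbln1 by 1.28 (SE 0.235, adjusted p 0.000191). That Fbln1 level, 4.98 and 8.42 CPM at E16.5, was near erythroid barcodes and below low-count barcodes, so its fall cannot be told apart from free RNA. Vcan rose by 0.48 (SE 0.130, adjusted p 0.00496), but had an adjusted p of 0.0872 without replicate 2 of E16.5, 0.120 with mixed barcodes kept and 0.698 with cells thinned to 2000 UMIs before summing. Dcn (3.50) and Lum (3.07) were called too, Dcn at the level of erythroid barcodes and Lum at 15.9 and 19.5 CPM against their 6.01 and 6.89 CPM at E16.5. The fibroblast list went from 311 and 272 to 1843 and 1799 CPM in endocardium, nearly all of it Mgp (274 and 231, then 1727 and 1691 CPM), while the fibrillar collagens went from 116 and 126 to 162 and 149 CPM. Their part in the rise of Fbln2 and Eln was not tested.

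In mural cells Eln and Fbln2 moved the other way. Of the 10 members 4 rose and 4 fell, where 30.2% of 9949 genes were called in either direction. Eln fell by 3.03 on the log2 scale (SE 0.255, adjusted p 2.68e-09), Fbln2 by 3.73 (SE 0.259, adjusted p 9.84e-11) and Vcan by 0.84 (SE 0.165, adjusted p 0.000365). Dcn rose by 4.23 (SE 0.185, adjusted p 4.13e-14), Postn by 3.33 (SE 0.163, adjusted p 2.08e-13) and Bgn by 1.06 (SE 0.126, adjusted p 6.24e-07). Fbln1 (0.65, adjusted p 0.00852) and Hapln1 (-1.54, adjusted p 0.0235) passed as well, but neither held throughout. With DESeq2 their adjusted p was 0.105 and 0.202, and 3 members rose and 3 fell, as they did without replicate 1 of E12.5, replicate 2 of E12.5 or replicate 1 of E16.5. Fbln1 had an adjusted p of 0.0824, 0.0769 and 0.532 without those libraries and 0.655 with thinned sums. Hapln1, at 1.95 to 12.7 CPM, had 0.223, 0.0662 and 0.0872, and also 0.106 without replicate 2 of E16.5 and 0.602 with cardiomyocyte genes at 8%. The genes that chose mural cells went from 591 and 620 to 1964 and 1956 CPM, and Fabp7, a gene of glia and neural crest, from 8.78 and 0 CPM to 302 and 206 CPM. Smooth muscle, set apart by Myh11, made up 3 and 3 mural cells at E12.5 and 11 and 8 at E16.5, with 1222 and 178 CPM of Eln at the latter. The part of these shifts in the Eln and Fbln2 changes was not tested.

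In cardiomyocytes the 2 members that stood above erythroid barcodes throughout both fell. Vcan fell by 1.31 on the log2 scale (SE 0.0662, adjusted p 4.26e-12) and Fbln1 by 1.84 (SE 0.0673, adjusted p 4.14e-14). At E14.5 and E16.5, however, cardiomyocyte Fbln1 lay below the range of low-count barcodes given above, and Vcan lay within it. The part of free RNA in both falls was not tested. In all, 2 members rose and 7 fell, where 32.3% of 13848 genes rose and 31.1% fell. The other 8 members stood at or near erythroid levels in these cells, except Eln at E12.5 and E14.5 (7.14 to 14.1 against 3.13 to 4.61 CPM), and nothing is read from their calls.

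The directions were then compared between classes by the difference of their stage changes. Between Sox9 mesenchyme and endocardium 4 members differed upward and 4 downward (12.4% of genes in either direction). Fbln2 differed by -3.90 (SE 0.246, adjusted p 2.30e-12) and Fbln1 by 2.50 (SE 0.280, adjusted p 1.71e-07), the latter with endocardial Fbln1 near erythroid levels at E16.5. Between Sox9 mesenchyme and mural cells the counts were 5 and 1 (11.1%), with Eln at 4.43 (SE 0.385, adjusted p 7.44e-10). Between endocardium and mural cells they were 4 and 3 (21.2%), with Fbln2 at 7.13 (SE 0.299, adjusted p 1.60e-17) and Eln at 6.27 (SE 0.420, adjusted p 1.02e-12). The 3 lower members of the last pair include Has2, which was too low to be tested in endocardium alone. All of these contrasts were added after the values had been seen.

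In the embryos Hapln1 was highest in endocardium and Vcan in cardiomyocytes, while Postn, Eln, Fbln2 and Dcn were low in Sox9 mesenchyme. Lum was not low there, with 143 CPM at E8.5 and 56.5 to 56.6 CPM at E10.5. Bgn of that class was at 53.0 CPM at E8.5 and 35.3 to 38.7 CPM at E10.5. At E8.5, with 1 sample and no test, endocardium held 326 CPM of Hapln1 (exact Poisson interval 307 to 347, counting error only), and cardiomyocytes held 197 CPM of Vcan (178 to 218) and 12.8 CPM of Has2 (8.38 to 18.8). The 43 cells of Sox9 mesenchyme had 123 CPM of Vcan (105 to 142), 28.2 of Has2 (20.2 to 38.3) and 81.2 of Fbln1 (67.2 to 97.3), but 6.19 of Postn (2.83 to 11.8) and 1 UMI of Eln. At E10.5 Hapln1 stood at 241 and 229 CPM in endocardium, Vcan at 220 and 274 CPM in cardiomyocytes and at 141 and 104 CPM in Sox9 mesenchyme, and Eln at 0.939 and 0.811 CPM in Sox9 mesenchyme. Tcf21 mesenchyme had 2, 11 and 2 cells in these 3 libraries and is not described there. Tissue outside the heart enters these classes, so embryo and heart levels are given side by side only.

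At P3, again 1 matrix, Sox9 mesenchyme (142 cells) held 5447 CPM of Dcn (5330 to 5566), 2441 of Eln (2363 to 2521), 2470 of Bgn (2392 to 2551) and 2212 of Postn (2138 to 2289). Tcf21 mesenchyme (343 cells) had 3920, 1807, 1426 and 2280 CPM of these. Hapln1 stood at 21.9 CPM (15.1 to 30.7) in Sox9 mesenchyme and at 3.07 CPM (1.59 to 5.37) in endocardium. Vcan was at 415 CPM (383 to 449) in Sox9 mesenchyme and at 161 CPM in Tcf21 mesenchyme. Endocardium held 1110 CPM of Eln (1077 to 1143) and 412 of Fbln2 (392 to 433), and mural cells 3037 of Eln (2999 to 3075). The matrix pools the 2 P3 sample records, told apart by barcode suffix, and mural Eln differed between them, at 1081 and 4958 CPM, as did Eln of Sox9 mesenchyme at 1767 and 2925 CPM, and Hapln1 there at 33.3 and 13.7 CPM, on 21 and 12 UMIs, while Bgn of Sox9 mesenchyme was 2468 and 2472 CPM. Dcn there was at 5877 and 5139 CPM and Vcan at 464 and 380 CPM. The intervals do not cover such differences. By visual examination, the paper found significant differences between batches at P3 alone.

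Other matrix genes from lists on the same themes were tested as well. Of 10 further small leucine-rich proteoglycans 6 passed the filter on low counts in Sox9 mesenchyme, and 5 of these rose and 0 fell from E12.5 to E16.5, with Aspn (asporin) at a log2 change of 4.69 and Fmod (fibromodulin) at 3.00. Nothing is read from that count, since a gene as low at E12.5 as Ecm2 (3 and 7 UMIs) passed the filter only through later stages. Of 19 elastic fibre genes 17 were tested, and 12 rose and 2 fell (median 0.66), Ltbp2 among those that passed the filter only through later stages. Nothing is read from this count and median either. Loxl1, a crosslinking enzyme, rose by 1.61, Ltbp1 fell by 1.33 and Loxl2 by 0.41, and Ltbp2 went from 1 UMI in each library, 0.141 and 0.103 CPM, to 24.97 and 42.7 CPM. Of 15 adhesive and matricellular genes 9 rose and 5 fell (median 0.85), led by Sparcl1 (4.46) and Thbs2 (3.89) upward and by Tgfbi (-1.99) and Cthrc1 (-0.70) downward. Of 10 genes for hyaluronan handling and lecticans 1 rose, Adamts5 (1.36), and 2 fell, Adamts1 (-1.04), which like Adamts5 cleaves versican, and Hyal2 (-0.65). Adamts5 went from 14.9 and 9.29 CPM to 41.3 and 12.2 CPM, so replicate 2 of E16.5 lay within the E12.5 range. Of 9 proteases and inhibitors 4 rose and 1 fell, among them Timp3 (1.38), Mmp2 (1.00) and Mmp15 (-1.48). Over all 11300 genes 13.6% rose and 12% fell, and the median log2 change was -0.0024, so the counts of the hyaluronan list were near the background. In the adhesive and protease lists, genes that passed the filter only through later stages were not screened out, so their counts are a description only.

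Between Sox9 and Tcf21 mesenchyme these lists divided, beside 13.9% of all genes higher and 14.9% lower. Of the hyaluronan list 2 of 11 were higher in Sox9 mesenchyme, the hyaluronan receptor Cd44 (2.32) and Tmem2 (0.60), and 3 were lower, with Cemip at -1.50 and Adamts5 at -0.85. Of the elastic fibre genes 7 of 17 were higher, with Fbln5 at 2.28 and Ltbp1 at 1.31, and 4 were lower, with Lox at -0.76 and Loxl1 at -0.75. Adhesive genes split 6 to 8 of 15, with Cthrc1 (3.19) and Tgfbi (2.30) higher and Nid2 (-1.76) and Fn1 (-1.17) lower. Prelp (2.38) was higher and Ogn (-2.85) lower among 6 small leucine-rich proteoglycans. Of 9 proteases and inhibitors 5 were higher and 2 lower, namely Mmp2 (0.72) and Mmp14 (0.58) against Reck (-0.60) and Timp3 (-0.44).

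Some members had like patterns over the 30 sums of 5 classes in 6 heart libraries, given here as a description since the sums share libraries. Postn and Bgn had a Pearson correlation of log2(CPM + 1) of 0.94, and Dcn and Lum, the neighbours on chromosome 10, of 0.92, followed by Postn and Lum with 0.88 and Fbln2 and Bgn with 0.87. Vcan and Hapln1, the neighbours on chromosome 13, had 0.38. Among 4943 genes searched, the 3 most like Bgn were Mmp2 (0.99), P3h3 and Mmp14, those most like Postn Fcgrt (0.97), Junb and Gpcpd1, and those most like Dcn Snhg18 (0.97), Gm12840 and Thbs2. For Lum they were Timp2 (0.96), Pdgfra and Lox, for Fbln1 Chpf (0.95), Qpct and Antxr1, and for Fbln2 Tvp23b (0.96), Golim4 and Stx5a. For Eln they were Fbln5 (0.89), Kdelr3 and Kctd12, for Vcan Rasl11b (0.90), Aspscr1 and Htra1, for Has2 Cthrc1 (0.90), Papss2 and Col9a3, and for Hapln1 Pop4 (0.87), Igf1 and Dnajb6.

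From cell to cell within Sox9 mesenchyme of 1 library, on levels scaled to each cell's total, Spearman correlations were low to moderate. Postn with Bgn ran from 0.29 to 0.42 over the 6 heart libraries and Vcan with Hapln1 from 0.29 to 0.44, the highest lower ends among the member pairs. Eln with Fbln2 ran from 0.09 to 0.49, whereas Eln with Fbln1 ran from -0.23 to 0.13. Cells of 1 library share its preparation, and counts per cell are sparse.

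**Figure D4:**
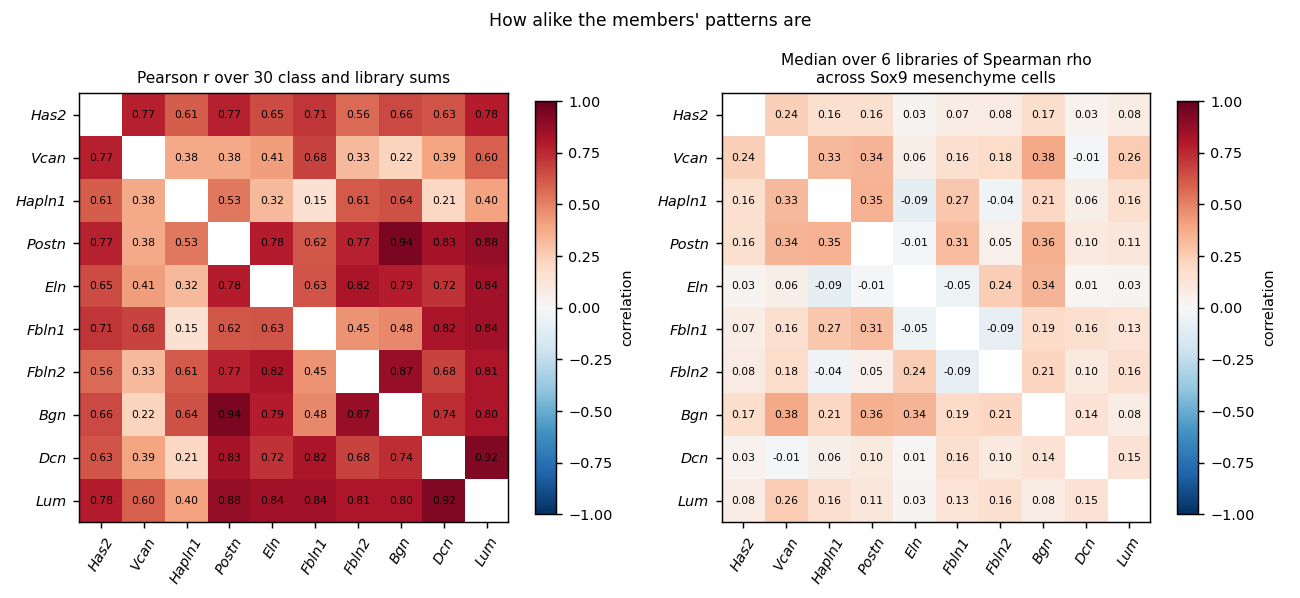
Pearson correlation of log2(CPM + 1) for each pair of members over 30 sums of 5 classes in 6 heart libraries (left), and median over the 6 heart libraries of Spearman's rho across cells of Sox9 mesenchyme (right), with the colour scale from -1 to 1. Postn with Bgn (0.94) and Dcn with Lum (0.92) are the strongest pairs on the left, Hapln1 with Fbln1 (0.15) is the weakest on the left, and values on the right stay at or below 0.38.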

How the data were processed

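Per gene and barcode, UMI counts were deposited by the authors as matrices whose headers name Cell Ranger 3.1.0 (3.0.0 for P3). Their processing notes name Cell Ranger 2.1.1, Seurat 3.1.1 and mm10. The labels give trypsin and v2 chemistry, and the methods of the study collagenase II and v3. The P3 matrix pools 2 sample records and had been filtered, the E16.5 replicate 1 matrix stands for 2 sample records, and E8.5 replicate 1 was not analysed here.

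Barcodes of at least 2000 UMIs were sorted by marker rules. Barcodes meeting the rules of several lineages were left out in place of a doublet caller. UMIs were summed per class and library, for sums of at least 10 cells. All 10 members and further genes by list were named: per list, the 2 genes of smallest adjusted p in each direction, and per member the 3 most correlated genes with a mean of at least 20 CPM. Members and lists were chosen with earlier results of these data known. One edgeR 4.0.16 quasi-likelihood model (R 4.3.3) with TMM scaling and its filter on low counts covered 5 classes in 6 heart libraries, and further models covered each class over 3 stages, with a threshold of 0.05 on the adjusted p. SEs are the log2 change divided by the root of F. E8.5, E10.5 and P3 entered no test, and exact Poisson intervals (95%) cover counting error only. DESeq2 1.42.0, each left-out library, other rules and floors, thinning and a replicate block were tried. Classes of 1 library share their preparation, and their deviations from the means of class and stage had a median correlation of 0.14 over 30 pairs (0.18 to 0.65 at E12.5, -0.066 to 0.13 at E14.5, -0.0047 to 0.27 at E16.5), so the library block is a paired fit. Scripts were tested on simulated data and ran in Python 3.11.15 with numpy 2.4.6, scipy 1.17.1 and pandas 2.3.3. Positions came from GENCODE and promoters from RefSeq, both on GRCm38.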

Additional observations from a re-analysis of the deposited data

Results flagged for a closer look

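These results were picked out because the change from E12.5 to E16.5 differed between 2 classes of the same libraries by a test of the difference itself (edgeR, adjusted over 12289 genes). Between Sox9 and Tcf21 mesenchyme all members that passed are given, and between other classes only those whose changes also passed in both classes in opposite directions. Values are differences of log2 changes. No explanation was weighed.

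Between Sox9 and Tcf21 mesenchyme, Dcn differed by 3.104 (SE 0.184, adjusted p 7.67e-13), as its early excess in Tcf21 mesenchyme was gone by E16.5. Postn differed by -1.95 (SE 0.199, adjusted p 9.80e-08), Lum by -1.08 (SE 0.266, adjusted p 0.0155) and Vcan by -0.85 (SE 0.190, adjusted p 0.00675). The Lum call was lost with DESeq2 (0.115), that of Vcan with thinned sums (0.0823), and both without replicate 1 of E12.5 or either library of E16.5 (0.0739 to 0.175 for Lum and 0.0657 to 0.0792 for Vcan).

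Between Sox9 mesenchyme and endocardium, Fbln2 differed by -3.90 (SE 0.246, adjusted p 2.30e-12), Vcan by -1.59 (SE 0.176, adjusted p 1.32e-07) and Fbln1 by 2.50 (SE 0.280, adjusted p 1.71e-07), each of them moving in opposite directions in these classes. Endocardial Fbln1 was low at both stages, 13.2 and 14.2 against 4.98 and 8.42 CPM. The later values were near those of erythroid barcodes, and all were below low-count barcodes. Its endocardial change thus cannot be told apart from free RNA.

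Eln differed by 4.43 (SE 0.385, adjusted p 7.44e-10) between Sox9 mesenchyme and mural cells. It differed by 6.27 (SE 0.420, adjusted p 1.02e-12) between endocardium and mural cells, where Fbln2 differed by 7.13 (SE 0.299, adjusted p 1.60e-17), Vcan by 1.41 (SE 0.198, adjusted p 2.67e-06) and Fbln1 by -1.87 (SE 0.307, adjusted p 2.95e-05), although the mural change of Fbln1 alone, and the endocardial change of Vcan alone, lost their calls under several alternatives. For Fbln1 the endocardial side was again near the level of free RNA.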

How the results depend on the processing

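Over the alternatives run, 1837 values of single members kept their direction and side of the threshold, 23 came to pass it, 29 no longer passed it and 26 changed sign. All that changed sign had not passed it in the reported fit, except Bgn in cardiomyocytes, at 0.12 with mixed cells kept. The difference of stage changes between Sox9 and Tcf21 mesenchyme changed sign for Bgn (-0.067 without the 5% of cells with most UMIs, -0.090 with cardiomyocyte genes at 8%, -0.071 with mixed cells kept, -0.21 with thinned sums, and -0.012 to 0.054 without 1 library at a time), Fbln2 (0.57 with 2 UMIs of the factor, 0.026 without the top 5%, 0.013 with the mitochondrial ceilings of the study, and -0.16 to 0.13 without 1 library), Hapln1 (-0.59 with thinned sums) and Has2 (0.059 with 2 UMIs). The class difference of Fbln2 ran from -0.019 to 0.17 without 1 library. Vcan in Tcf21 mesenchyme was 0.045 with 2 UMIs, 0.078 with 20 collagen UMIs and 0.073 with thinned sums. Lum in mural cells was -0.032 with DESeq2, -0.047 with the replicate block, -0.11 without the top 5%, -0.0015 with cardiomyocyte genes at 2%, -0.027 with the ceilings and -0.46 to 0.35 without 1 library. In cardiomyocytes Lum was 0.19 with mixed cells kept and -0.30 to 0.088 without 1 library.

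Thinning the summed cells to 2000 UMIs, an alternative added after seeing the data, left fewer UMIs, fewer genes tested (7356 against 12289 over the classes) and fewer called. Against Tcf21 mesenchyme it called 947 genes (3535 in the reported fit), against endocardium 3427 (7882), against mural cells 762 (3086), against cardiomyocytes 4900 (9559) and for the difference of stage changes 46 (406). By stage it called 853 (2890) in Sox9 mesenchyme, 360 (1577) in Tcf21 mesenchyme with 0 of 8 members tested fallen, 1543 (4899) in endocardium with 1 of 8 fallen, 776 (3001) in mural cells and 5271 (8782) in cardiomyocytes with 1 of 7 risen, and 2 members were highest in Sox9 mesenchyme at E10.5. Thinning before the class rules left too few cells for the class contrasts and for the stage contrasts of mesenchyme and mural cells, which could not be fitted. It called 174 of 1656 genes tested in endocardium (of 4 members tested 2 rose and 1 fell) and 5280 in cardiomyocytes, and 3 members were highest in Sox9 mesenchyme at P3. DESeq2 called 1820 in Sox9 mesenchyme, 721 in Tcf21 mesenchyme, 3172 in endocardium and 1404 in mural cells. In Tcf21 mesenchyme 2 members fell, Fbln2 among them, without the filter, with 2 UMIs, without the top 5%, with cardiomyocyte genes at 2%, with 20 collagen UMIs and with the ceilings. The causes were not tested.

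Leaving out 1 library at a time gave 2028 to 2714 genes for Sox9 mesenchyme against mural cells (lowest without E14.5 replicate 1), 148 to 383 for the difference of stage changes (lowest without E16.5 replicate 1) with 1 to 3 members lower, 1884 to 2789 in Sox9 mesenchyme (lowest without E16.5 replicate 1), 1049 to 1822 in Tcf21 mesenchyme (lowest without E12.5 replicate 1) with 1 to 2 members fallen, and 1953 to 3104 in mural cells (lowest without E12.5 replicate 1, then 1964 without E12.5 replicate 2). With the library as a replicate block the difference of stage changes called 549 genes, and no member's call changed apart from Fbln1 there. Between stages same-numbered libraries share only a number (median correlation of deviations 0.03 over 15 pairs, from -0.16 to 0.31, with the 3 of cardiomyocytes at 0.118, 0.255 and 0.309). That block called 2905 genes in Sox9 mesenchyme, 1587 in Tcf21 mesenchyme, 5048 in endocardium, 3143 in mural cells and 9193 in cardiomyocytes. UMI floors of 1000 and 5000 moved 0 of 172 levels from 20 CPM past 1.5-fold, thinned sums moved 13, and thinning before the class rules moved 44 of 107. Depth limits Has2, with 25 UMIs in each E16.5 library of Sox9 mesenchyme, and Hapln1 in Tcf21 mesenchyme, with 5 and 1.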

Other observations

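Mesenchyme with both Sox9 and Tcf21 entered no comparison. Its Vcan lay between that of Sox9 and Tcf21 mesenchyme, with 375 and 379 CPM at E12.5 and 131 and 126 CPM at E16.5, and so did its Postn, with 334 and 311 and then 1297 and 1386 CPM. Its Dcn was at 339 and 254 CPM at E12.5, between both, and at 2118 and 2308 CPM at E16.5, where it overlapped Tcf21 mesenchyme.

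Bgn of endothelium without Npr3 was at 123 and 118 CPM at E12.5 and at 61.0 and 68.8 CPM at E16.5, lower at the later stage, whereas endocardial Bgn was higher then. Its Vcan was at 112 and 102 CPM and then at 18.4 and 14.1 CPM, while endocardial Vcan was at 27.3 and 30.05 and then at 42.0 and 50.5 CPM. These values were not tested.

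At P3 the 146 smooth muscle cells, set apart by Myh11, held 6828 CPM of Eln (exact Poisson interval 6693 to 6964), and mesenchyme with neither factor 4876 CPM. These values pool both P3 sample records, between which Eln of all mural cells differed (1081 and 4958 CPM), and were not split by record. The interval covers counting error only.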
